A study of Caenorhabditis elegans with 6 samples.

Results

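The genes described here are 34 nuclear genes that encode subunits of the mitochondrial respiratory chain and of ATP synthase in Caenorhabditis elegans. They were taken by gene identifier from the deposited count table, which lists 21951 genes, and were grouped by complex. Complex I gave 8 genes, complex II 4, complex III with cytochrome c 7, complex IV 4 and ATP synthase, also called complex V, 11. The study sequenced poly(A)-enriched RNA of whole wild-type worms, collected as young adults carrying eggs, in 6 libraries. Of these, 3 were of worms exposed to 100 mM ethyl carbamate for 24 h, and 3 were control libraries, for which the labels name no vehicle. Ethyl carbamate, or urethane, is a small carbamate ester that occurs in fermented food and drink. The sample descriptions of both groups and the titles of the controls carry the letters EV, which the sources used here do not explain. They do not say how many worms went into a library. Because whole worms were extracted, a lower level cannot be told apart from fewer cells of the tissues that express a gene.

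The respiratory chain sits in the inner mitochondrial membrane. Complex I takes electrons from NADH and complex II takes them from succinate. Both pass them through ubiquinone to complex III, and cytochrome c carries them on to complex IV, which reduces oxygen. Complexes I, III and IV pump protons, and ATP synthase uses the proton gradient to make ATP. In C. elegans several of these genes are known from mutants: mev-1 mutants are sensitive to oxygen and oxidants, and isp-1 and nuo-6 mutants live long. So do mutants of clk-1, a gene of ubiquinone synthesis that is not among the members. Some subunits have more than 1 gene. The pair asb-1 and asb-2 encodes the b subunit of the ATP synthase stalk, with asb-1 known as the germline form and asb-2 as the form of the soma.

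The libraries held 20176242, 21258740 and 20923534 gene counts in the ethyl carbamate group, against 19026133, 22108560 and 22416213 in the control group. The 34 genes took 1.03%, 1.01% and 1.00% of all counts in the exposed libraries, against 1.23%, 1.23% and 1.19% in the control libraries. Levels below are CPM, read counts brought to a common library total here from the deposited counts with TMM scaling, and FPKM where genes are compared with each other, since FPKM is per length. Each difference is a log2 fold change, ethyl carbamate over control, with its standard error (SE), and was called at an adjusted p under 0.05 in edgeR's quasi-likelihood test over 14705 genes. Most of the transcriptome differed between the groups: 36.3% of the tested genes were called lower and 40% higher.

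All 34 genes passed the filter on low counts. The ethyl carbamate libraries had lower levels of 30 of them and higher levels of 2, one of them ucr-2.1, while asb-2 and ucr-2.2 were not called. Under scaling by library size only, 22 were called lower and 3 higher, and under quantile normalization 21 were lower and 4 higher; sdhb-1, cyc-2.1, ucr-2.2 and asb-2 turned positive under both and nuo-4 under the second. The 2 groups of libraries were fully apart for the 30 lower genes and the 2 higher ones, against 37.1% of all tested genes apart with lower values and 40.8% apart with higher values. The median log2 fold change of the 34 was -0.36, against 0.05 over all tested genes. Their changes were small: 4 genes were at least 1.5-fold lower and 0 were at least 2-fold lower. Summed over the 34 genes, the level was 9743, 9411 and 9345 CPM in the ethyl carbamate libraries, against 13410, 13095 and 12486 CPM in the control libraries.

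The share of genes called lower depended on level, and these genes are highly expressed. Their mean log2 CPM ran from 5.91 to 10.99. Of the 3985 tested genes within that range, 71.1% were called lower and 18.6% higher, and their median log2 fold change was -0.27. Read against that background, 30 of 34 is above the share of genes of like level, and the median is lower by a small step. This background was taken with TMM scaling only, so the comparison is not known for the other scalings. The spread of the log2 fold changes was narrower among the members, with an SD of 0.23, against 0.64 among the tested genes of that range. The members with higher levels had the more negative changes, with a Spearman rho of -0.48 over 34 genes and -0.28 over the 28 genes on autosomes; these points share their libraries.

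**Figure D1:**
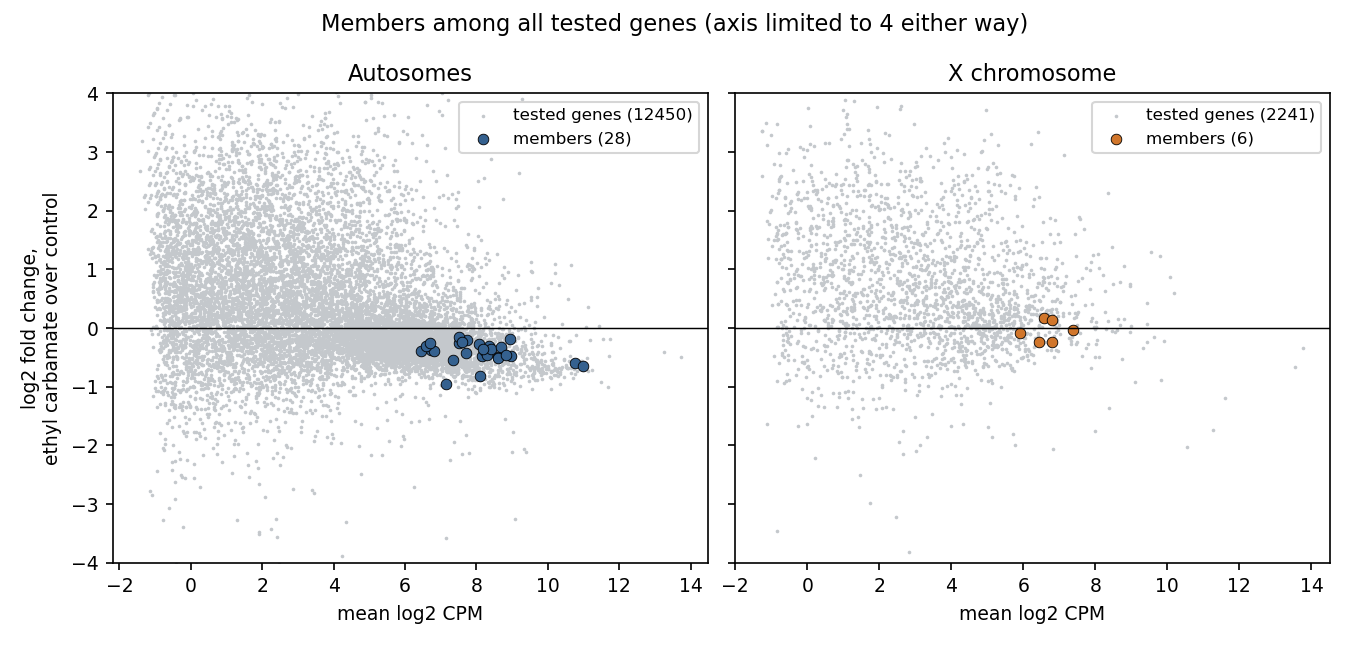
Log2 fold change of ethyl carbamate over control against mean log2 CPM for every tested gene, on autosomes (left) and on the X chromosome (right), with the 34 respiratory chain and ATP synthase genes as large points; tested genes beyond 4 either way lie outside the axis. All 28 autosomal members lie below 0 in these edgeR values, at the high end of expression; nuo-4, sdhb-1 and cyc-2.1 turn positive under quantile normalization, and sdhb-1 and cyc-2.1 also with library sizes only. The 6 X-linked members lie close to 0.

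The calls depended on the scaling. With library sizes only, the median of all tested genes was 0.24, a shift of 0.19, and 23.2% of genes were called lower and 49.1% higher. With quantile-normalized FPKM the median of all tested genes was -0.11, a shift of -0.16, and 44.1% were lower and 28.5% higher. The members' median stood below that of all tested genes by -0.40 with TMM scaling, by -0.40 with library sizes only and by -0.07 after quantile normalization. In each of the 16 alternative fits 21 genes were called lower. They are nuo-1, nuo-2, nuo-5, nuo-6 and lpd-5 of complex I; isp-1, cyc-1, ucr-1 and ucr-2.3 of complex III; cox-4, cox-5A and cox-5B of complex IV; and atp-1 to atp-5, asb-1, R53.4, hpo-18 and R04F11.2 of ATP synthase. No gene of complex II is among these 21.

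**Figure D2:**
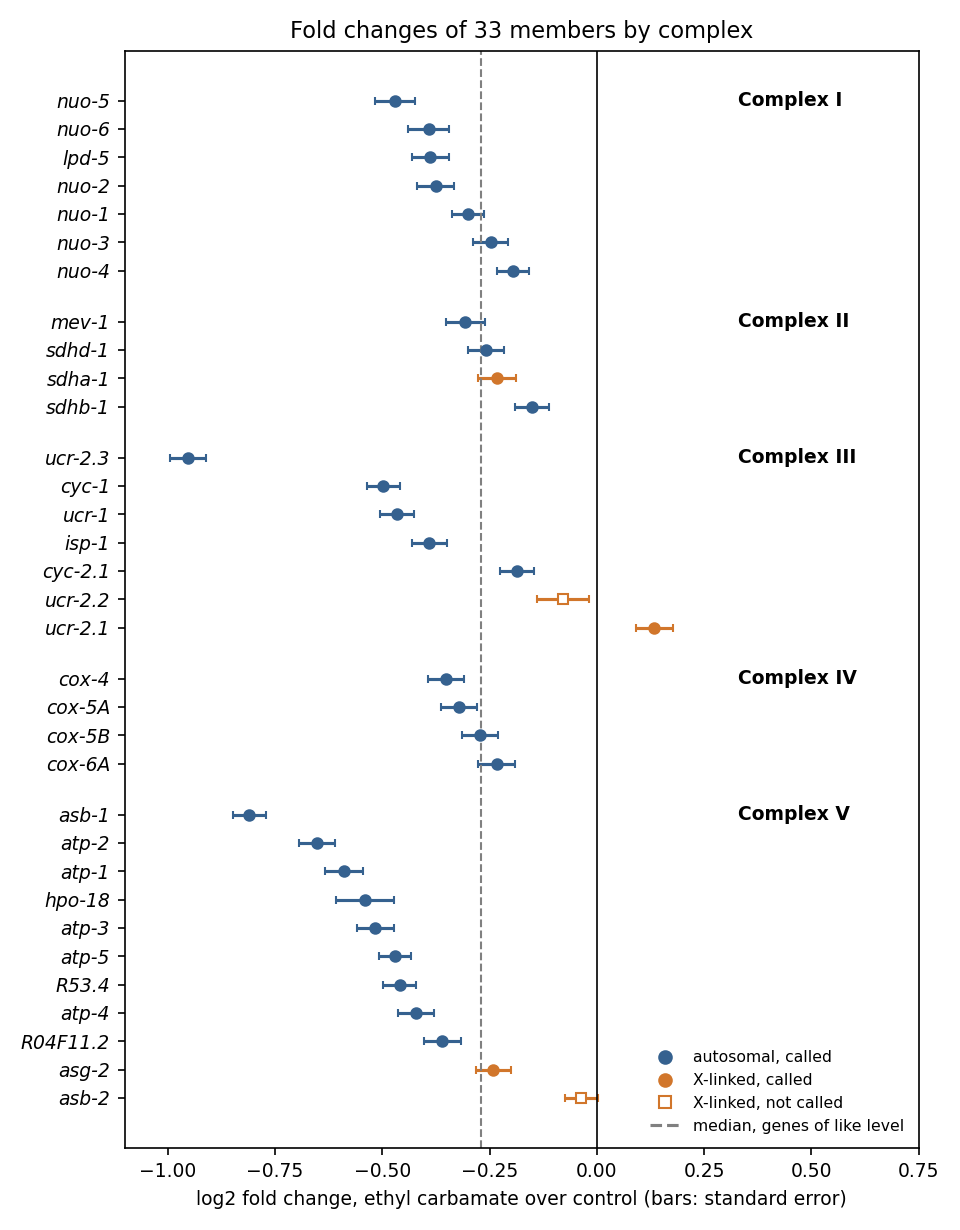
Log2 fold change of 33 of the 34 genes, ethyl carbamate over control, with the SE as bars, ordered within each complex; orange marks X-linked genes, open squares mark genes that were not called, and the dashed line is the median of tested genes in the same range of expression, at -0.27. The lowest values are those of ucr-2.3 at -0.95 and asb-1 at -0.81, and the highest drawn is that of the X-linked ucr-2.1; ucr-2.2, asb-2, sdhb-1, cyc-2.1 and nuo-4, all near 0, turn positive under at least 1 other scaling.

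In complex I, 7 of 8 genes fell and 1 rose. The median log2 fold change was -0.34. With library sizes only and after quantile normalization, 5 of the 8 were called lower and 1 higher: nuo-3 and nuo-4 lost their calls in both, and nuo-4 turned positive after quantile normalization. The gene with the largest fall was nuo-5 (Y45G12B.1), which encodes the 75 kDa iron-sulfur subunit (NDUFS1) of the NADH-oxidizing arm. It had 243, 243 and 237 CPM in the ethyl carbamate libraries, against 355, 342 and 306 CPM in the control libraries. The exposed libraries lay close together and below every control library, and the level was 1.38-fold lower (log2 fold change -0.47 ± 0.05, edgeR adjusted p = 1.07e-08). A neighbouring gene on the opposite strand, C24B9.3, overlaps nuo-5 by 259 bases and was also lower, with 910, 953 and 966 reads in the ethyl carbamate libraries, against 2291, 2684 and 2593 in the controls. No source used here gives the strand setting of the counting, so reads of the 2 genes cannot be told apart in the shared stretch.

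The other subunits of the NADH-oxidizing and quinone-binding arm moved less. The flavoprotein subunit gene nuo-1 (C09H10.3, NDUFV1) had 300.1, 294 and 291 CPM in exposed worms and 371, 368 and 351 CPM in controls, and its log2 fold change was -0.30 ± 0.04. The 30 kDa subunit gene nuo-2 (T10E9.7, NDUFS3) averaged 92.1 ± 4.85 CPM with ethyl carbamate and 119 ± 2.74 CPM in controls (SD, n = 3 each), a log2 fold change of -0.38. For lpd-5 (ZK973.10, NDUFS4), an accessory subunit of the same arm, the means were 76.4 ± 1.48 CPM in exposed and 100.0 ± 4.7 CPM in control worms, and the log2 fold change was -0.39. The accessory subunit genes nuo-6 (W01A8.4, NDUFB4), nuo-3 (Y57G11C.12, NDUFA6) and nuo-4 (K04G7.4, NDUFA10) had log2 fold changes of -0.39, -0.25 and -0.20. For nuo-4, which had the smallest fall of the complex, the means were 199 ± 4.68 CPM in exposed and 228 ± 6.59 CPM in control worms. The 2 groups are apart, but the gap between the nearest libraries is small. For nuo-4 the edgeR adjusted p was 0.914 with library sizes only, and for nuo-3 it was 0.173.

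The authors' deposited table called 30 of the 34 genes lower and 1 higher, against 24.4% of the 21951 listed genes lower and 24.4% higher. In the authors' deposited table ucr-2.1 had a log2 fold change of 0.08 and an adjusted p of 0.218, so it was not called there.

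Complex II, succinate dehydrogenase, also works in the citric acid cycle. All 4 of its genes here fell, by a median of -0.25 on the log2 scale, but 1 gene was called lower with library sizes only and 0 after quantile normalization, and sdhb-1 turned positive in both. The largest fall was that of mev-1 (T07C4.7), which encodes the cytochrome b large subunit (SDHC). It had 91.6, 84.9 and 84.5 CPM in exposed libraries, against 112, 108 and 103 CPM in control libraries, and was 1.24-fold lower (log2 fold change -0.31 ± 0.04, edgeR adjusted p = 3.1e-06). The small membrane anchor sdhd-1 (F33A8.5, SDHD) had 98.5, 95.6 and 91.0 CPM with ethyl carbamate, against 117, 115 and 109 CPM in controls, a log2 fold change of -0.26. The iron-sulfur subunit gene sdhb-1 (F42A8.2, SDHB) moved least, with 175, 173 and 168 CPM in exposed libraries and 197, 195 and 181 CPM in control libraries (log2 fold change -0.15 ± 0.04, edgeR adjusted p = 0.00177). In the edgeR values the libraries of the 2 groups were apart for all 4 genes. The flavoprotein gene sdha-1 (C03G5.1), on the X, is described with its paralog.

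Complex III passes electrons from ubiquinol to cytochrome c. Here 5 of 7 genes fell and 1 rose; the median was -0.39 on the log2 scale, and cyc-2.1 and ucr-2.2 turned positive with library sizes only and after quantile normalization. There 4 genes were called lower in both, with 1 higher under the first scaling and 2 under the second. Of its catalytic subunits, cyc-1 (C54G4.8), which encodes cytochrome c1, had 326, 326 and 309 CPM in the ethyl carbamate libraries, against 453, 459 and 445 CPM in the control libraries. The replicates lay close together in both groups and the groups far apart, and the level was 1.41-fold lower (log2 fold change -0.50 ± 0.04, edgeR adjusted p = 2.54e-10). The Rieske iron-sulfur gene isp-1 (F42G8.12) had 272, 258 and 259 CPM in exposed libraries and 356, 351 and 327 CPM in controls, a log2 fold change of -0.39 ± 0.04. The core 1 gene ucr-1 (F56D2.1) had 272, 254 and 265 CPM with exposure, against 371, 370.4 and 351 CPM without, a log2 fold change of -0.47 ± 0.04. These 3 genes were called lower in every alternative.

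The core 2 subunit has 3 genes, and they went separate ways. The autosomal ucr-2.3 (T24C4.1) had the largest fall of all 34 genes: 103, 97.3 and 92.2 CPM in ethyl carbamate libraries, against 191, 191 and 184 CPM in control libraries. Its level was close to halved in each exposed library, 1.94-fold lower (log2 fold change -0.95 ± 0.04, edgeR adjusted p = 2.41e-14). The X-linked ucr-2.1 (VW06B3R.1) had 119, 113 and 115 CPM in exposed libraries, against 106, 111 and 99.4 CPM in controls. The lowest exposed library stood just above the highest control library (log2 fold change 0.13 ± 0.04, edgeR adjusted p = 0.00812), and the call was lost without control replicate 3, where the log2 fold change was 0.08 and the edgeR adjusted p was 0.0928. It was also lost in DESeq2, which called 36.3% of tested genes lower and 36.7% higher, and in limma on log2 FPKM, which called 40.3% lower and 36.6% higher. The X-linked ucr-2.2 (T10B10.2) had 62.2, 55.4 and 57.7 CPM in exposed libraries, against 63.9, 65.8 and 55.4 CPM in control libraries, so the groups overlap (log2 fold change -0.08 ± 0.06, edgeR adjusted p = 0.247). Without control replicate 3 it was called lower, at -0.16 (edgeR adjusted p = 0.0159).

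The value of ucr-2.2 carries a limit of its own. The cuticle collagen gene col-41 lies inside it on the opposite strand, over 1443 bases, and had 8, 7 and 14 reads in the ethyl carbamate libraries, against 801, 1381 and 1029 in the control libraries. For ucr-2.2 itself 1327, 1259 and 1297 reads were counted in exposed libraries and 1114, 1365 and 1181 in control libraries. Whether reads of col-41 entered that count was not tested. Cytochrome c itself, from cyc-2.1 (E04A4.7), had 479, 460.1 and 452 CPM in ethyl carbamate libraries, against 538, 527 and 516 CPM in control libraries. The groups are apart and the fall is small (log2 fold change -0.19 ± 0.04, edgeR adjusted p = 0.000245), and the call depended on the scaling. It was lost with library sizes only (edgeR adjusted p = 0.878) and with an FPKM filter (edgeR adjusted p = 0.0777), and after quantile normalization cyc-2.1 was called higher (log2 fold change 0.15, limma adjusted p = 0.00114). A second cytochrome c gene, cyc-2.2, had at most 4 reads in any library and was not tested.

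Complex IV, cytochrome c oxidase, had 4 genes in the set and all fell, with a median log2 fold change of -0.30; none turned in any scaling, and 3 stayed called with library sizes only and after quantile normalization, where cox-6A was not. These nuclear subunits surround a catalytic core that is encoded in mitochondrial DNA. The largest fall was in cox-4 (W09C5.8), with 313, 289 and 286 CPM in exposed libraries, against 385, 387 and 364 CPM in control libraries. That is 1.28-fold lower (log2 fold change -0.35 ± 0.04, edgeR adjusted p = 2.16e-07). The smallest was in cox-6A (F54D8.2), with 188, 169.6 and 172 CPM in exposed libraries, against 214, 208 and 201 CPM in control libraries (log2 fold change -0.23 ± 0.04, edgeR adjusted p = 5.43e-05). Between them, cox-5A (Y37D8A.14) had 380.2, 358 and 358 CPM with ethyl carbamate, against 473, 466 and 431 CPM without, and cox-5B (F26E4.9) had 255, 239 and 242 CPM with it, against 311, 287 and 291 CPM without. Their log2 fold changes were -0.32 and -0.27. The 4 genes thus lie within a narrow band, close to the -0.27 median of genes of like level.

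ATP synthase had the lowest median of the complexes, -0.47, with 10 of 11 genes called lower and 0 higher. Their mean log2 CPM ran from 6.43 to 10.99. Of all tested genes at a log2 CPM of 8 or more, 77.7% were lower, with a median of -0.40. At 6 to 8, 70.5% were lower, with a median of -0.25. The part of level in the gap between complexes was not tested. Under library-size and under quantile scaling 9 of the 11 genes were called lower and 1 higher. There asb-2, the gene not called in the edgeR values, was called higher, and asg-2 lost its call. In the catalytic head, atp-2 (C34E10.6), which encodes the beta subunit, had 1606, 1556 and 1589 CPM in the ethyl carbamate libraries, against 2567, 2506 and 2394 CPM in the control libraries. It was 1.57-fold lower in exposed worms (log2 fold change -0.65 ± 0.04, edgeR adjusted p = 1.4e-11). The alpha subunit gene atp-1 (H28O16.1) had 1416, 1382 and 1368 CPM with exposure, against 2187, 2099 and 1979 CPM without, and was 1.5-fold lower (log2 fold change -0.59 ± 0.04, edgeR adjusted p = 1.48e-10). These 2 genes, whose products together form the hexamer that binds nucleotides, thus fell by a like amount. Per length, atp-2 had the highest level of the 34 genes in both groups, 802 ± 15.7 FPKM with ethyl carbamate and 1308 ± 55 FPKM in controls. The next in controls were atp-1, cyc-2.1 and R53.4, and the lowest was ucr-2.2, at a mean of 40.5 FPKM in exposed and 44.4 FPKM in control worms. In exposed worms cyc-2.1, at 794 FPKM, stood above atp-1, at 675 FPKM, while in controls it stood below it, at 937 against 1053 FPKM.

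Genes for the central and side stalks fell too. The epsilon subunit gene hpo-18 (F32D1.2) had 142, 144 and 115 CPM in exposed libraries, against 216, 186 and 183 CPM in control libraries. It varied more among replicates than its neighbours, and still the groups were apart (log2 fold change -0.54 ± 0.07, edgeR adjusted p = 4.23e-07). The gene for the OSCP subunit that caps the side stalk, atp-3 (F27C1.7), had 333, 315 and 313 CPM with exposure, against 478, 462 and 434 CPM without, a log2 fold change of -0.52 ± 0.04. For atp-5 (C06H2.1), which encodes subunit d of that stalk, the values were 428, 419.9 and 412 CPM with ethyl carbamate and 585, 586 and 573 CPM in controls, a log2 fold change of -0.47 ± 0.04. Coupling factor 6, from atp-4 (T05H4.12), had a log2 fold change of -0.42 ± 0.04. The membrane subunits f and e, from R53.4 and R04F11.2, had log2 fold changes of -0.46 and -0.36. All of these genes were called lower in all 16 alternatives.

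The b subunit genes differed. The germline form asb-1 (F35G12.10) had 201, 202 and 203 CPM in the ethyl carbamate libraries, against 367, 356 and 339 CPM in the control libraries. The exposed libraries were nearly identical and 1.75-fold lower (log2 fold change -0.81 ± 0.04, edgeR adjusted p = 9.4e-14), the second largest fall of the 34. The somatic form asb-2 (F02E8.1), on the X, had 169.7, 161 and 163 CPM in exposed libraries, against 166, 174 and 166 CPM in control libraries. The groups overlap and it was not called (log2 fold change -0.04 ± 0.04, edgeR adjusted p = 0.401). It was called higher with library sizes only (log2 fold change 0.15, edgeR adjusted p = 0.00107) and after quantile normalization (0.17, limma adjusted p = 0.00299).

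**Figure D3:**
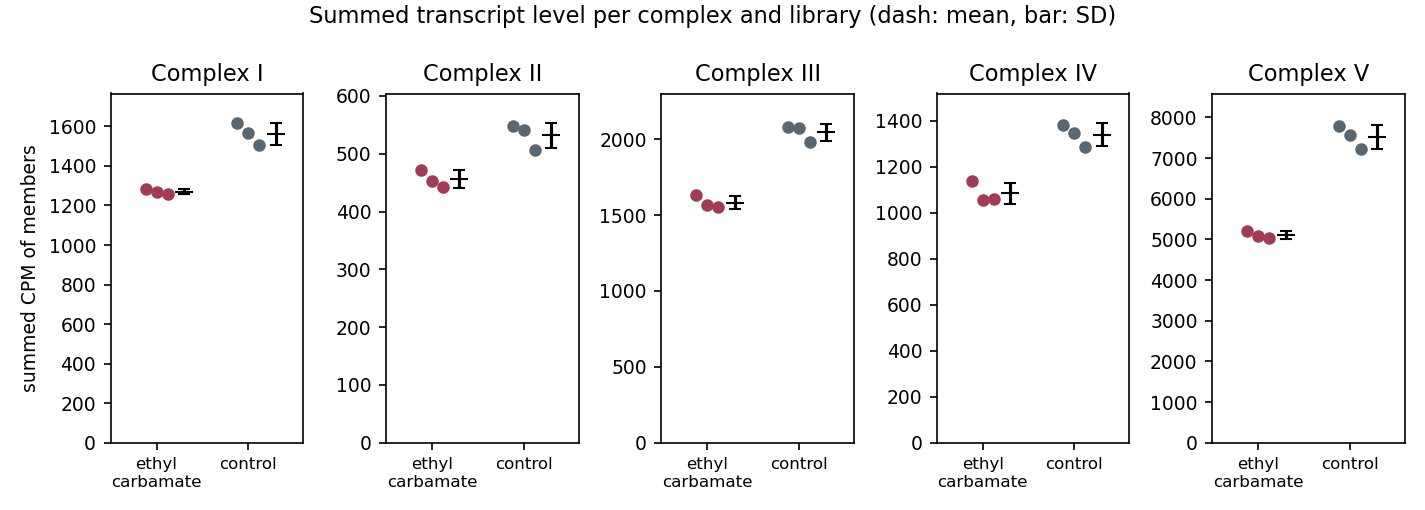
Summed CPM of the member genes of each complex in each library, ethyl carbamate left and control right, with the mean and SD of 3 libraries beside the points and each axis starting at 0. Every exposed library lies below every control library in all 5 complexes on this TMM scale; complex V has the widest relative gap.

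Summed over its genes, each complex was lower in exposed worms on the TMM scale. Complex V summed to 5108 ± 94.5 CPM with ethyl carbamate and 7520 ± 290 CPM in controls (SD, n = 3 each), a log2 ratio of -0.56. Complex III summed to 1582 ± 44.5 CPM in exposed and 2044 ± 57.4 CPM in control worms, a log2 ratio of -0.37. Complex I summed to 1270 ± 14.5 CPM in exposed and 1562 ± 55.7 CPM in control worms, a log2 ratio of -0.30. Complex IV summed to 1084 ± 46.2 CPM in exposed and 1339 ± 48.8 CPM in control worms, a log2 ratio of -0.30. Complex II had the smallest gap, with 456 ± 15.5 CPM in exposed and 532 ± 21.8 CPM in control worms and a log2 ratio of -0.22. As shares of all counts, without TMM scaling, the complex II sums overlapped. Ethyl carbamate replicates 1 and 2, at 0.04998% and 0.0484%, lay above the lowest control library, at 0.0483%. The shares of the other 4 complexes stayed apart. The sum for complex V rests largely on atp-1 and atp-2. No test between complexes was run.

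The members on the X differed from those on autosomes. All 28 autosomal members were called lower, at a median of -0.39 on the log2 scale, against 39.9% of tested autosomal genes called lower and 36.4% higher. With library sizes only 22 of the 28 were called lower and 0 higher, and after quantile normalization 21 were lower and 1, cyc-2.1, was higher. The 6 X-linked members include sdha-1, ucr-2.1, ucr-2.2, asb-2 and asg-2. Of the 6, 2 were lower (sdha-1 and asg-2), 2 were higher and 2 were not called, with a median of -0.06, which turned positive with library sizes only, after quantile normalization and with an FPKM filter. Of these members 0 were lower and 3 higher with library sizes only and after quantile normalization. Of the 2241 tested genes on the X, 16.3% were called lower and 59.9% higher, and their median log2 fold change was 0.51. Among tested genes in the members' range of level, 23% of 282 on the X were lower and 62.4% higher, while 74.8% of 3693 on autosomes were lower and 15.3% higher. The medians of those genes were 0.26 on the X and -0.29 on the autosomes, so with TMM scaling the members' medians were the lower ones on both. No test of X-linked against autosomal members was run. As background, the X carries few genes with germline expression in C. elegans.

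Copies on both an autosome and the X were compared for 4 subunits, and in each the balance of the copies was shifted toward the X-linked copy in exposed worms. Tested genes of the members' level had a median log2 fold change of -0.29 on autosomes and 0.26 on the X. A shift in this direction is therefore not particular to these copies. Pairs were taken by shared subunit, and 2 of them use a gene that is not among the 34: asg-1 beside asg-2 (subunit g) and sdha-2 beside sdha-1 (succinate dehydrogenase flavoprotein). A ratio of 2 genes within a library does not depend on scaling. How reads that match both copies were treated is unknown from the sources used here, so the split between close copies is uncertain. In the deposited coordinates, of a build that no source used here names, asb-1 lies on chromosome III from 4594541 to 4595821 and asb-2 on X from 4469743 to 4471480. The gene ucr-2.3 lies on III from 879858 to 881507, ucr-2.1 on X from 12018427 to 12021212 and ucr-2.2 on X from 15173902 to 15178126.

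**Figure D4:**
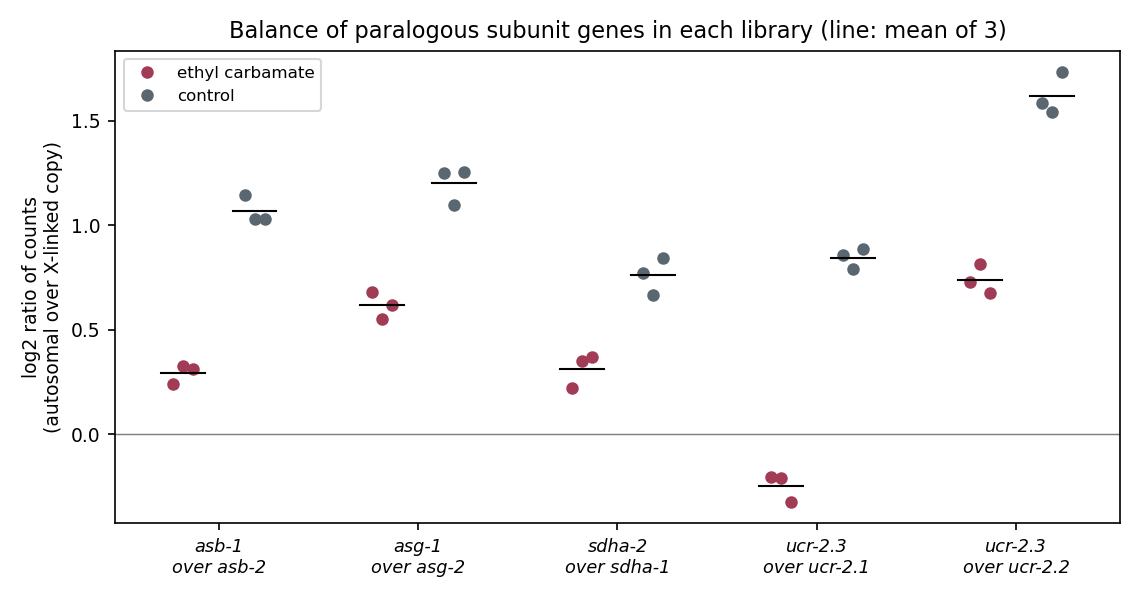
Log2 ratio of counts of the autosomal over the X-linked copy in each library, ethyl carbamate left and control right in each pair, with the mean of 3 libraries as a line; the counts are not divided by length. In all 5 pairs the exposed libraries lie below the control libraries, and for ucr-2.3 over ucr-2.1 they lie below 0.

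For asb-1 over asb-2 the log2 ratio was 0.24, 0.33 and 0.31 in ethyl carbamate libraries, against 1.14, 1.03 and 1.03 in control libraries. The groups were far apart relative to their spread, with a difference of -0.77. For ucr-2.3 over ucr-2.1 it was -0.20, -0.21 and -0.32 with exposure and 0.85, 0.79 and 0.89 without, a difference of -1.09, the widest of the 5. In that pair the copy with more reads was the X-linked one in every exposed library and the autosomal one in every control library. The other 3 pairs differed by -0.88 (ucr-2.3 over ucr-2.2), -0.58 (asg-1 over asg-2) and -0.45 (sdha-2 over sdha-1), with the groups apart in each. The exact two-sided permutation p was 0.1 for each of the 5 pairs, and 0.1 after Benjamini-Hochberg adjustment over them, which is the smallest that 3 libraries against 3 can give, so no pair could pass 0.05. The 2 ucr pairs share ucr-2.3.

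**Figure D5:**
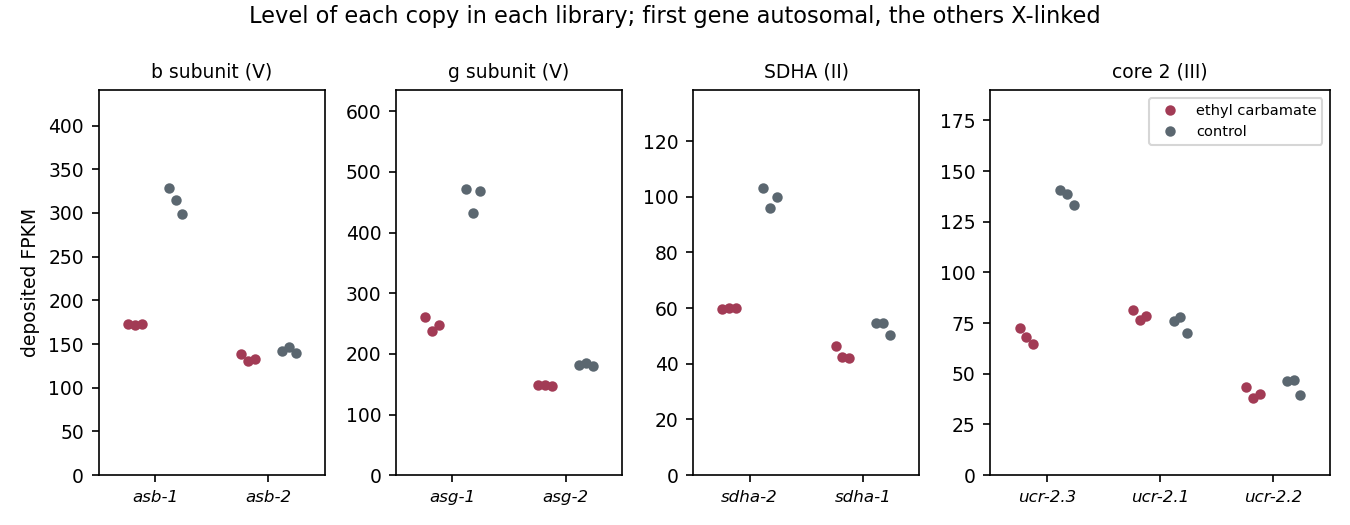
Deposited FPKM of each copy in each library for 4 subunits, ethyl carbamate left and control right for each gene, with the autosomal copy first and each axis starting at 0. The autosomal copy is lower in exposed libraries in each panel, while the X-linked copies lie closer to their controls.

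In levels, the autosomal copies carried most of the difference. The gene asg-1 had 127, 116 and 121 CPM in exposed libraries, against 219, 204 and 221 CPM in control libraries (log2 fold change -0.82 ± 0.04, edgeR adjusted p = 3.22e-13). Its X-linked copy asg-2 (C53B7.4) had 79.0, 79.3 and 78.5 CPM with exposure, against 92.2, 95.2 and 92.4 CPM without (log2 fold change -0.24 ± 0.04, edgeR adjusted p = 1.55e-05). The fall of asg-2 was the smaller one, and it was not called with library sizes only (edgeR adjusted p = 0.288) or after quantile normalization (limma adjusted p = 0.137). For sdha-2 the values were 125, 126 and 127 CPM with exposure and 208, 196 and 204 CPM without (log2 fold change -0.68 ± 0.04, edgeR adjusted p = 9.73e-13). The X-linked sdha-1 had 108, 99.2 and 98.3 CPM in exposed libraries, against 122, 123 and 114 CPM in control libraries (log2 fold change -0.23 ± 0.04, edgeR adjusted p = 7.61e-05). It was not called with library sizes only or after quantile normalization.

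In FPKM, which allows copies to be added, the autosomal copy gave 56.3 ± 0.771% of the b subunit transcripts in exposed worms and 68.7 ± 0.99% in controls (SD, n = 3 each). For subunit g the share was 62.7% in exposed and 71.5% in control worms. For the succinate dehydrogenase flavoprotein it was 57.9% in exposed and 65.2% in control worms. Core 2 crossed the midpoint, with 36.4 ± 1.02% from ucr-2.3 in exposed worms and 53.6 ± 1.14% in controls. The copies together were lower in exposed worms for all 4 subunits; the b subunit, for example, summed to 307 ± 4.23 FPKM with exposure and 457 ± 16 FPKM in controls. FPKM carries the authors' own scaling.

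Genes that act with these complexes were counted in lists, beside the 36.3% of all tested genes and the 71.1% of genes of the members' level that were called lower. The shares lower were 73.3% for assembly factors, 72.9% for the mitochondrial ribosome, 76.9% for the stress response and 66.7% for mitochondrial DNA. All are near the 71.1%, so nothing is read from these 4 counts about the lists. In that order, their mean log2 CPM reached down to 0.55, 4.21, 2.78 and 0.52, below the members' lowest of 5.91. Assembly factors reached up to 6.36 only. The 71.1% is therefore not a share at like level for these lists. Medians stayed negative under the scalings tried except for ubiquinone synthesis, the carriers and mitochondrial DNA. Of 21 further genes for subunits or the synthase inhibitor, 20 were tested, 17 fell and 0 rose, with a median log2 fold change of -0.34; asg-1 had the largest fall. Scaled by library size only, 13 were lower and 2 higher, and after quantile normalization 13 and 3. Of 15 assembly factor genes 11 fell and 0 rose, with a median of -0.26. The copper chaperone cox-17 had a log2 fold change of -0.72 ± 0.26 on 0.89, 1.14 and 1.11 CPM in exposed libraries and 1.89, 1.73 and 1.59 CPM in controls, a low level. The copper-transfer gene cox-11 had -0.39 ± 0.07. Scaled by library size only, 4 assembly factor genes were called lower and 2 higher.

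Ubiquinone synthesis had 4 of 8 genes lower, 1 higher and a median log2 fold change of -0.15, which turned to 0.04 with library sizes only, where 2 were lower and 3 higher. The methyltransferase gene coq-5 had a log2 fold change of -0.46 ± 0.05 and the kinase-like coq-8 one of -0.38 ± 0.05. The gene that rose was coq-1, which makes the isoprenoid tail, at 0.23 ± 0.06, named here after its value was seen. Of 4 adenine nucleotide carrier genes, which exchange ADP for ATP across the inner membrane, 2 had enough reads to test and both were called lower. The abundant ant-1.1 had 2843, 2742 and 2756 CPM in exposed libraries, against 3249, 3188 and 3055 CPM in control libraries, a log2 fold change of -0.19 ± 0.04 that turned to 0.37, called higher, after quantile normalization. The other, ant-1.3, had a log2 fold change of -1.30 ± 0.41 on under 2 CPM in every library.

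The mitochondrial ribosome, which translates the subunits encoded in mitochondrial DNA, had 51 of 70 genes lower and 1 higher (mrpl-37, at 0.16, named after its value was seen), with a median of -0.23. The largest falls were in mrps-25 at -0.67 ± 0.05 and mrpl-44 at -0.64 ± 0.04. Scaled by library size only, 13 of the 70 were called lower and 10 higher, at a median of -0.04. Under quantile normalization the counts were 33 lower and 6 higher. Protein import had 11 of 12 genes lower and 0 higher, with a median of -0.36; with library sizes only and after quantile normalization 8 were lower and 1 higher. The inner membrane channel gene timm-17B.2 had -0.71 ± 0.12 and the small carrier chaperone gene tin-13 had -0.55 ± 0.05.

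Of 13 genes of the mitochondrial stress response, 10 fell and 1 rose, with a median of -0.30. The counts with library sizes only were 6 lower and 3 higher, and after quantile normalization 7 were lower and 2 higher. The largest changes were in haf-1, a peptide transporter of the inner membrane, at -1.22 ± 0.13, and in the X-linked transcription factor gene dve-1, at 0.93 ± 0.07. The chaperone genes used as reporters of that response, named here after their values were seen, both fell. There hsp-6 had 564, 546 and 538 CPM in exposed libraries, against 759, 746 and 725 CPM in control libraries, and hsp-60 had 474, 466 and 472 CPM in exposed libraries, against 741, 693 and 719 CPM in control libraries. The 12 protein genes of mitochondrial DNA had 8 lower and 0 higher and a median of -0.22, which turned to 0.02 after quantile normalization. The groups of libraries were fully apart with lower values for 5 of the 12, against 37.1% of all tested genes. Of the 12, 5 were lower and 3 higher with library sizes only, and after quantile normalization 2 were lower and 3 higher. Their summed level was 5543, 6573 and 6402 CPM in exposed libraries, against 6484, 6688 and 7798 CPM in control libraries, so the groups overlap. The largest falls there were in MTCE.4, at -1.22 ± 0.39 on at most 3.38 CPM, and MTCE.16, at -0.62 ± 0.12. With the first ethyl carbamate library left out 5 were called lower, and with control replicate 3 left out 4.

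Markers of tissues also differed between the groups, and no list's median changed sign under the scalings tried. Beside the counts below stand 36.3% of all tested genes called lower and 40% called higher. All 16 germline markers tested were called lower (median log2 fold change -0.45). Their mean log2 CPM ran from 6.56 to 10.12, within the range of the respiratory members. Of all tested genes in that range 71.1% were lower, with a median of -0.27. The summed level below is that of the germline markers. It was 6584 to 6710 CPM in exposed libraries, against 9284 to 9846 CPM in control libraries. Of 12 neuronal markers 11 were higher and 0 lower. Their median was 1.33 and their summed level 747 to 796 CPM in exposed libraries, against 509 to 533 CPM in control libraries. Of 10 body wall muscle markers 8 were higher and 0 lower (median 0.87), with sums of 4637 to 4906 CPM in exposed libraries, against 2607 to 2776 CPM in controls. Of 8 pharynx markers 5 were higher and 2 lower (median 1.63), with sums of 370 to 424 CPM in exposed libraries, against 129 to 145 CPM in controls. Of 10 intestine markers 8 were higher and 2 lower (median 0.28). Their sum went the other way, 24993 to 27221 CPM in exposed libraries against 31964 to 34194 CPM in controls, since the yolk genes vit-2 and vit-6 hold most of it and both fell. After quantile normalization 0 of the 10 intestine markers were called lower and 7 higher. Of 7 tested hypodermis markers 3 were higher and 3 lower, with sums of 439 to 480 CPM in exposed libraries and 473 to 486 CPM in controls. Of 9 listed sperm markers 1 had enough reads to test, and it was not called. No marker was at 0 in all 6 libraries. The part of these shifts in the levels of the respiratory genes was not tested.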

How the data were processed

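The authors deposited raw read counts per gene for 21951 genes, normalized counts (a signal, counts divided by a size factor per library), FPKM, and log2 fold changes with p-values, per the file headers. The submitters' processing notes list StringTie 1.3.3, DESeq2 1.20.0, HISAT2 2.0.5 and featureCounts 1.5.0-p3 without their roles. The design text names DEGSeq, and the origin of the deposited p-values is unclear. The genome build and the strand setting are not given in the sources used here. FPKM is per length and follows the authors' scaling; a second deposited FPKM table holds 24638 further genes and was not used.

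Counts were tested here with edgeR 4.0.16 (R 4.3.3): TMM scaling, filterByExpr, a two-sided quasi-likelihood test of 3 ethyl carbamate against 3 control libraries with no covariate, and Benjamini-Hochberg adjustment over 14705 genes at 0.05. The SE was derived from the log2 fold change and the F statistic. Precision is limited by 3 libraries per group; the design text calls the replicates biological. Members and gene lists were chosen with earlier results of these data known. Named were the members, their paralogs and up to 2 called genes per list with the largest change; paralogs were paired by subunit name after the files were seen, and by no sequence search. The values of 1 member and of its paralog are not reported here. The list of genes of mitochondrial DNA was filled by chromosome and biotype, since symbols were missing. Symbols came from RefSeq for 21580 identifiers and from the Ensembl WBcel235 annotation for 10. Alternatives were other scalings, filters, limma 3.58.1 on log2 FPKM with pseudocounts of 0.1, 0.5 and 1, DESeq2 1.42.0, a stricter threshold of 0.01, a replicate block, and fits without single libraries. On simulated data with 14705 genes, edgeR found 50% of genes changed 1.25-fold, 68% of those changed 1.5-fold, 84% of those changed 2-fold and 98% of those changed 4-fold. It made 11 false calls. In that simulation 50 genes were changed at each fold and the rest were left unchanged. In these data most tested genes differed, so the rates do not show how reliable the calls are here.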

Additional observations from a re-analysis of the deposited data

How the results depend on the processing

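The 30 members called lower ranged from 30 to 31 and their median log2 fold change from -0.40 to -0.33 when a library was left out. The median was -0.16 with library sizes only, -0.25 among genes with FPKM of at least 5 and -0.18 after quantile normalization. Members called higher numbered 1 in DESeq2, in limma on log2 FPKM with each of the 3 pseudocounts and without control replicate 3, and 4 after quantile normalization; on the X they numbered 1 in DESeq2, in those limma fits and without control replicate 3, and X-linked members called lower numbered 0 with library sizes only and after quantile normalization. Complex II had 1 gene lower with library sizes only and 0 after quantile normalization. With library sizes only, 3409 of all tested genes were lower, as were 4 assembly factors, 2 ubiquinone genes, 1 nucleotide carrier, 13 mitochondrial ribosome genes, 6 stress response genes and 5 genes of mitochondrial DNA. With an FPKM of at least 5 the counts lower were 2 ubiquinone genes, 0 carriers, 33 ribosome genes and 4 genes of mitochondrial DNA. After quantile normalization they were 0 of the 1 carrier tested, 33 ribosome genes and 2 genes of mitochondrial DNA. In limma on FPKM 1 carrier was lower, and at a threshold of 0.01 the ubiquinone genes numbered 2. With a library left out, ubiquinone genes ranged from 2 to 4, carriers from 1 to 2 and genes of mitochondrial DNA from 4 to 8.

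Signs turned as follows. With library sizes only the log2 fold change was 0.039 for sdhb-1, 0.11 for ucr-2.2, 0.0058 for cyc-2.1 and 0.15 for asb-2, and the medians of X-linked members and ubiquinone genes were 0.13 and 0.041. With an FPKM of at least 5 it was 0.030 for ucr-2.2 and 0.072 for asb-2, and the medians were 0.051 for X-linked members and -0.0041 for all tested genes. After quantile normalization it was 0.018 for nuo-4, 0.053 for sdhb-1, 0.013 for ucr-2.2, 0.15 for cyc-2.1 and 0.17 for asb-2, with medians of 0.094 for X-linked members, 0.37 for carriers, 0.025 for genes of mitochondrial DNA and -0.11 for all tested genes. The carrier value after quantile normalization is that of ant-1.1 alone, the 1 carrier tested there. In limma on FPKM the median of all tested genes was -0.034, -0.036 and -0.033 with pseudocounts of 0.5, 0.1 and 1. The cause of these moves was not tested. The differences in paralog ratios were also taken from FPKM, between same-numbered libraries and without single libraries. These settings reuse the same counts, and the groups were apart in each pair, so the sign could hardly turn. Without single libraries the differences ranged from -0.79 to -0.74 for asb-1 over asb-2. For ucr-2.3 over ucr-2.1 they ranged from -1.12 to -1.05.

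The replicate block changed no member's call and left 30 members lower and 2 higher. Between libraries with the same number, deviations from the group means correlated at 0.06, 0.01 and 0.08. Each control library correlated best with the exposed library of its own number. Ethyl carbamate replicate 2 correlated slightly better with control replicate 1. With 3 libraries per group these small values cannot settle whether same-numbered libraries belong together. With 3 libraries per group, exact tests cannot go below 0.1.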
